A study of Mus musculus with 9 samples.

Results

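The genes of the major histocompatibility complex (MHC) and of antigen processing were followed in a mouse embryonic stem cell (ESC) line and in D5 and D10, the lines re-derived from it after transplantation. Members were the genes whose symbol begins with H2-, except H2-Ke2 and H2-Ke6, together with B2m, Tap1, Tap2, Tapbp, Psmb8, Psmb9, Psmb10, Psme1, Psme2, Erap1, Ciita and Cd74. This gave 48 of the 22360 gene symbols on the array: 28 class I genes, 11 class II genes and 9 processing genes. Where a gene had more than 1 probe set, its brightest probe set by the 9-array mean was used, which concerned 3 genes (H2-Q2, H2-t9 and Psme2). RefSeq places 41 of the 48 on chromosome 17, which carries the MHC.

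The D10 line (3 arrays) was grown from green fluorescent cells sorted out of bone marrow on day 10 after ESC transplantation, the D5 line (3 arrays) from cells sorted on day 5, and the ESC group (3 arrays) is the green fluorescent ESC line itself. That ESC line came from 3.5-day blastocysts, and the labels give the strain of all arrays as C57BL/6×Oct4/EGFP transgenic OG2 mice, so every group carries the Oct4/EGFP transgene that marks pluripotent cells. The labels add a strain in brackets, B57BL6/CBA on the first ESC array, whose number differs on every array, and that addition was not used. All cells grew on feeder cells in ESC medium, and total RNA was labelled for Affymetrix arrays. The design text names 1 cell line for each re-derived group, so D5 and D10 are each a single line, and no label gives the age of the transplanted mice. The arrays are labelled biological replicates, but nothing says that they came from separate derivations, so p-values measure the spread between these arrays only.

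Class I molecules sit on nearly every nucleated cell and show peptides from inside the cell to CD8 T cells, and their level also sets how natural killer cells read the cell. The peptides are cut by the proteasome, in which interferon-induced subunits (Psmb8, Psmb9, Psmb10) can replace constitutive ones, carried into the endoplasmic reticulum by the TAP transporter and loaded onto a heavy chain paired with beta-2-microglobulin. Class II molecules show peptides from outside the cell to CD4 T cells and are normally made by professional antigen-presenting cells under the master regulator CIITA. Pluripotent stem cells are known for low class I levels that interferon gamma raises, in part through IRF1.

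Promoter sequences show elements through which interferon and constitutive factors are known to act on these genes, and they are given for members described below. RefSeq promoters of build GRCm38.p6, from 250 bases before to 50 after the annotated start, were found for 38 of the 48 genes. The 200 bases before the start of 7 of them are printed 5′ to 3′ on the gene's strand, with capitals marking the core of an interferon-stimulated response element (GAAANNGAA or GAANNGAAA) and the CCAAT box, either on either strand.
B2m: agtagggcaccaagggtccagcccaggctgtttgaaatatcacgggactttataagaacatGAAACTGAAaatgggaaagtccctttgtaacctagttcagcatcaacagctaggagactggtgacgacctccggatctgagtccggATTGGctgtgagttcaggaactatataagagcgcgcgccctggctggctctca
H2-K1: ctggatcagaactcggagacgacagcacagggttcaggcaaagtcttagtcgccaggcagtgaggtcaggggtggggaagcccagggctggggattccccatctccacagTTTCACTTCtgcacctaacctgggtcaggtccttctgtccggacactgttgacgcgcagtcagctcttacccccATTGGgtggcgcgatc
H2-Q6: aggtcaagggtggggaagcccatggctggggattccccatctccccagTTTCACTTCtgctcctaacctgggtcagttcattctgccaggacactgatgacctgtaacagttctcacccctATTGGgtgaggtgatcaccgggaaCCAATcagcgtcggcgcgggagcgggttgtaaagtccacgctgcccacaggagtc
H2-T22: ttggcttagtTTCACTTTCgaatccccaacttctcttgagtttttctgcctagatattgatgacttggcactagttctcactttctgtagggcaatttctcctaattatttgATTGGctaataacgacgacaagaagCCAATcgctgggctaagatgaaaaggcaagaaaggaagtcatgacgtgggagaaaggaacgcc
H2-M5: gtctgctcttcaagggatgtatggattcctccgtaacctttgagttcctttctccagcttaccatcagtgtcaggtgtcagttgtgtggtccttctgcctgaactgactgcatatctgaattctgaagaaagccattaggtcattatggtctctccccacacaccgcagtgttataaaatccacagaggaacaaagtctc
Tapbp: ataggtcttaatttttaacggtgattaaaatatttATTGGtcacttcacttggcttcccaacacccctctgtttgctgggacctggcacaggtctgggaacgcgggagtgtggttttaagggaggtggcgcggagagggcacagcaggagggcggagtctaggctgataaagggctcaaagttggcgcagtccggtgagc
Psmb8: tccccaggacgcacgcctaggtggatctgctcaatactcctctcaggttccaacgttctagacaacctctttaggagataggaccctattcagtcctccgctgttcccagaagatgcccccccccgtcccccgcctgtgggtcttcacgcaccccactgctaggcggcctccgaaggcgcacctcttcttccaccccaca
The stretches are chr2:122147487-122147686 on the plus strand for B2m, chr17:34000348-34000547 on the minus strand for H2-K1, chr17:35424650-35424849 on the plus strand for H2-Q6, chr17:36042743-36042942 on the minus strand for H2-T22, chr17:36989534-36989733 on the minus strand for H2-M5, chr17:33919278-33919477 on the plus strand for Tapbp and chr17:34197995-34198194 on the plus strand for Psmb8. The arrangement GAANNGAAA was added to the search after the sequences had been read, so its count among members is a description only. It stood in 8 of the 38 member promoters (21.1%) and in 7.52% of all promoters, while GAAANNGAA alone stood in 6 (15.8%) and in 8.56%.

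With both arrangements counted, the interferon-stimulated core was present in 13 of the 38 member promoters (34.2%). It was present in 14.8% of all 32851 promoters of the same length. Since this count includes the arrangement added after reading, it too is a description only. The core was found in 11 of 23 class I promoters (B2m, H2-K1, H2-D1, H2-Q6 and H2-T22 among them). It was found in 0 of 7 class II promoters and in 2 of 8 processing promoters (Psme1 and Erap1). Of the class I genes named, B2m and H2-T22 held GAAANNGAA, and H2-K1, H2-D1 and H2-Q6 only the added GAANNGAAA. In B2m its first base lay 139 bases before the start, in H2-K1 90 and in H2-Q6 152. The CCAAT box, on either strand, was present in 29 of the 38 member promoters (76.3%) against 37.4% of all promoters. The gamma-activated site TTCNNNGAA, an element of interferon gamma-induced promoters, was present in 5 (13.2%) against 8.30%. None of the printed promoters held both an interferon-stimulated core and a gamma-activated site, so no overlap could arise there. In the H2-t9 promoter, which is not printed, a core and a gamma-activated site overlapped. A match is a description of the sequence, and related class I genes share promoter sequence, as the TTTCACTTC of H2-K1 and H2-Q6 shows. H2-M5, Tapbp and Psmb8, all of which differed from ESC in a line, held no interferon-stimulated core in this window. The same was true of H2-T3 and Psme2, which differed from ESC in D10 and are not printed. Among the members that passed against ESC and had a promoter here, only B2m and H2-Q6 held the core. Psmb8 did hold a gamma-activated site 97 to 89 bases before the start, which the capitals above do not mark.

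The deposited values are log2 intensities. The 9 array medians ran between 4.45 and 4.53. D10 replicates 1 and 3 were almost alike: the SD of their difference was 0.0686 over the 8292 probe sets with a mean above 6, while the 8 remaining replicate pairs had SDs of 0.154 to 0.201. Their difference was below the noise seen among replicates, so the pair entered as 1 sample and D10 has n = 2 in every mean and test below, while the values of all 3 arrays are printed. Olfactory and vomeronasal receptor genes, which other tissues barely transcribe, gave the background level: 95% of their 1419 probe sets lay under 3.68. Of the members, 28 had a mean above it: 15 of 28 class I, 4 of 11 class II and all 9 processing genes, against 64.0% of all probe sets. No member was left out of a test for a low level. Cells were grown on feeder cells and the values are from bulk RNA, so fewer cells of a type and less RNA per cell cannot be told apart.

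In the D5 line, 3 members were lower than in ESC by limma's test at an adjusted p under 0.05: H2-T10, a class I gene of the T region, Psmb8, an immunoproteasome subunit, and Tapbp, the chaperone tapasin. None was higher, and 45 did not pass. Over all 28853 probe sets, 1.50% were lower in D5 and 2.36% higher. The median change of the 48 members was −0.22 on the log2 scale, against −0.01 over all probe sets, and 38 of the 48 changes were negative, as were 53.0% of the changes over all probe sets. On 17 members (35.4%) every D5 array lay under every ESC array, against 11.0% of all probe sets, and 0 members showed the opposite. An unadjusted p under 0.05 in limma's test was reached by 17 of the 48 members and by 4779 of the 28853 probe sets (16.6%).

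In the D10 line, 5 members were lower than in ESC and 1 was higher by the same test. Those lower were the class I genes H2-M5, H2-Q6 and H2-T3 and the processing genes Psme2 and Tapbp. The 1 that was higher was B2m, the light chain that all classical class I molecules share. Over all probe sets, 3.33% were lower in D10 and 5.32% higher. The median member change was −0.12, against −0.02 over all probe sets, and on 14 members (29.2%) every D10 array lay under every ESC array, against 16.4% of all probe sets. An unadjusted p under 0.05 in limma's test was reached by 15 of the 48 members and by 6107 of the 28853 probe sets (21.2%). Both lines were set against the same ESC arrays, so their changes are not independent. Tapbp was the 1 member that passed as lower in both. Other members, among them H2-T10, H2-M5 and Psmb8, had negative changes in both lines but passed in only 1 of them.

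Between the lines, 0 members passed limma's test in D10 against D5. An unadjusted p under 0.05 was reached by 7 of the 48 members and by 2814 of the 28853 probe sets (9.75%). Over all probe sets only 0.194% were higher in D10 and 0.0208% lower. On 8 members (16.7%) every D10 array lay above every D5 array, against 9.87% of all probe sets. The largest such differences were in H2-T10, B2m and H2-K1.

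**Figure D1:**
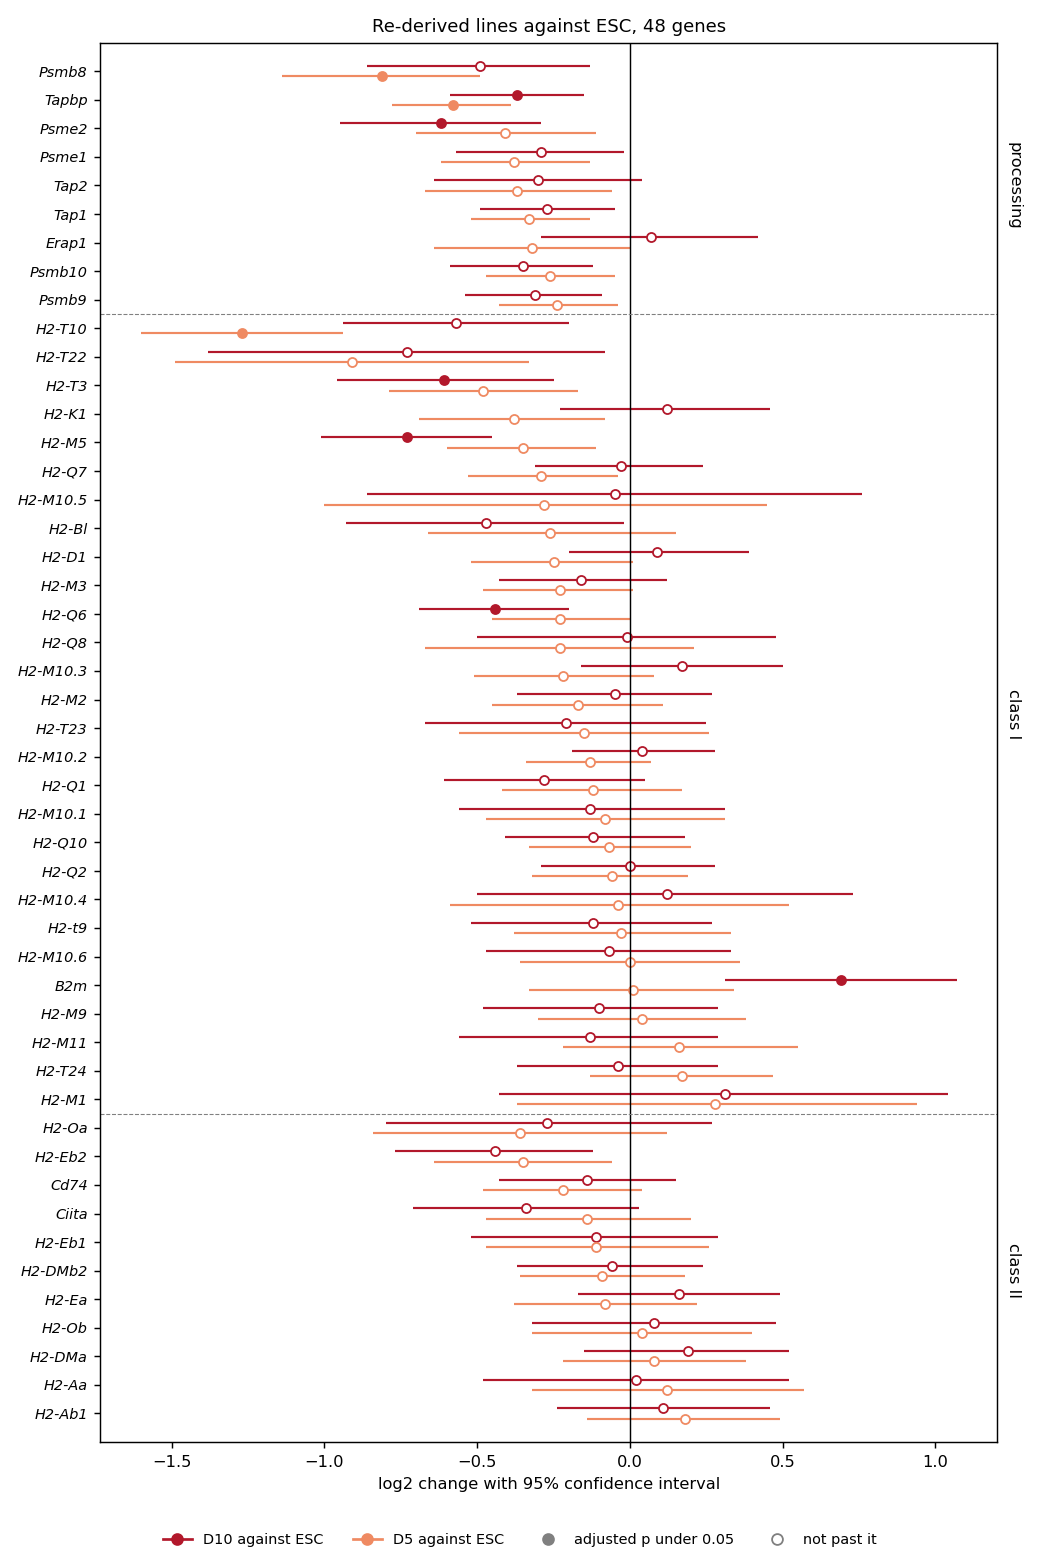
Log2 change of the 48 genes in D10 (dark red) and D5 (orange) against ESC, with 95% confidence intervals from limma, grouped by role. Filled points passed an adjusted p of 0.05. All 9 processing genes lie left of 0 in D5, every class II point is open, and B2m is the 1 filled point to the right.

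B2m encodes beta-2-microglobulin, which stabilises the class I heavy chains. It read 8.53, 8.22 and 8.47 on the D10 arrays, 7.47, 7.88 and 7.67 on the D5 arrays, and 7.60, 7.91 and 7.48 on the ESC arrays. All D10 arrays were above all others, and the D5 and ESC arrays overlapped. The mean was 8.36 ± 0.20 in D10 (SD, n = 2) and 7.66 ± 0.22 in ESC (n = 3), a rise of 0.69 (SE 0.17), or 1.62-fold, with adjusted p = 0.0368. In D5 it averaged 7.67 ± 0.21, 0.01 above ESC with a 95% interval of −0.33 to 0.34. D10 stood 0.69 above D5, which did not pass (adjusted p = 0.167). The D10 call was lost in a fit of D10 and ESC alone (adjusted p = 0.0741), and without ESC replicate 1 (0.104), ESC replicate 3 (0.112), D5 replicate 3 (0.0598) or D10 replicate 2 (0.0823), with changes between 0.60 and 0.83. Fibroblast markers were highest in D10 as well, with a summed intensity of 10257 to 10600 in D10 and 4253 to 4905 in ESC. In D5, where B2m was 0.01 above ESC, their sum was 7223 to 7977. The part of these markers in the D10 rise of B2m was not tested.

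H2-K1 and H2-D1 encode the classical class I heavy chains of the K and D regions. Class I genes of these regions are also close in sequence. Which of them each probe set reads could not be settled without probe sequences. H2-K1 read 6.15, 5.65 and 6.03 on the D10 arrays, 5.47, 5.29 and 5.35 on the D5 arrays, and 5.57, 5.83 and 5.87 on the ESC arrays. Its D5 arrays were the lowest and did not overlap either other group. The difference from ESC was 0.12 in D10 (95% interval −0.23 to 0.46) and −0.38 in D5 (−0.69 to −0.08, adjusted p = 0.184), and D10 stood 0.50 above D5 (0.16 to 0.84, adjusted p = 0.269). None of them passed, and the same holds for H2-D1. H2-D1 read 6.59, 6.56 and 6.64 on the D10 arrays, 6.10, 6.31 and 6.31 on the D5 arrays, and 6.55, 6.66 and 6.27 on the ESC arrays. Its differences were 0.09 in D10 against ESC (95% interval −0.20 to 0.39), −0.25 in D5 against ESC (−0.52 to 0.01) and 0.35 in D10 against D5 (0.05 to 0.64, adjusted p = 0.397).

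H2-T10 and H2-T22 are non-classical class I genes of the T region, whose products in mouse are known as ligands of some gamma delta T cell receptors. H2-T10 is annotated by RefSeq as a transcribed pseudogene in this reference genome, and it shares near-identical sequence with H2-T22, so a probe set may read both. H2-T10 read 5.10, 5.03 and 5.09 on the D10 arrays, 4.43, 4.43 and 4.21 on the D5 arrays, and 5.79, 5.29 and 5.81 on the ESC arrays. The 3 groups did not overlap, with D5 lowest and ESC highest. The mean was 4.35 ± 0.13 in D5 and 5.63 ± 0.29 in ESC (n = 3 each), a change of −1.27 (SE 0.14), or 2.42-fold lower in D5, with adjusted p = 0.00256. This was the largest change among the 48 members in any of the 3 comparisons, and it passed in each of the 17 alternatives run, with adjusted p at most 0.0168. The D10 change of −0.57 did not pass (adjusted p = 0.0687), nor did the 0.71 by which D10 stood above D5 (95% interval 0.34 to 1.07, adjusted p = 0.147). H2-T22 read 5.36, 5.97 and 5.08 on the D10 arrays, 5.06, 5.73 and 5.45 on the D5 arrays, and 5.90, 6.52 and 6.55 on the ESC arrays. Its changes of −0.73 in D10 (adjusted p = 0.183) and −0.91 in D5 (adjusted p = 0.100) against ESC did not pass. The replicate scatter of H2-T22, with an SD of 0.53 in D10, 0.34 in D5 and 0.37 in ESC, was wider than that of H2-T10.

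H2-M5, a non-classical gene of the M region, read 5.08, 4.84 and 4.87 on the D10 arrays, 5.15, 5.26 and 5.44 on the D5 arrays, and 5.73, 5.48 and 5.70 on the ESC arrays. The groups formed an order without overlap, D10 lowest and ESC highest. D10 averaged 4.91 ± 0.09 (n = 2) and ESC 5.64 ± 0.14 (n = 3), a change of −0.73 (SE 0.12, adjusted p = 0.00784). The D5 change of −0.35 did not pass (adjusted p = 0.133), and neither did D10 against D5 (−0.38). The call was lost without D10 replicate 2, where the change was −0.66 with adjusted p = 0.0690.

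H2-Q6 belongs to the Q region, whose class I-like genes H2-Q6, H2-Q7 and H2-Q8 are so alike that probes may not separate them. It read 4.85, 5.00 and 4.91 on the D10 arrays, 5.19, 5.04 and 5.25 on the D5 arrays, and 5.52, 5.36 and 5.28 on the ESC arrays. The groups again did not overlap, with D10 lowest. The change was −0.44 in D10 (SE 0.11, adjusted p = 0.0403) and −0.23 in D5 (adjusted p = 0.294) against ESC. H2-Q7, by contrast, was at −0.03 in D10 and −0.29 in D5, and H2-Q8 at −0.01 and −0.23, none of which passed. The H2-Q6 call was lost without any 1 of the ESC arrays, D5 replicate 1, D5 replicate 3 or D10 replicate 2, and in a fit of D10 and ESC alone, with adjusted p up to 0.109 and changes between −0.51 and −0.38.

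H2-T3 encodes the thymus leukaemia antigen, a ligand of CD8 alpha homodimers in mouse. It read 3.23, 3.74 and 3.23 on the D10 arrays, 3.70, 3.68 and 3.45 on the D5 arrays, and 4.08, 4.01 and 4.18 on the ESC arrays. Both lines lay under ESC on all arrays, and 2 of the 3 D10 arrays were under the background level. The D10 change was −0.61 (SE 0.15, adjusted p = 0.0458), and with a D10 mean of 3.48, under background, its size is uncertain. It lost its call without any 1 of the ESC or D5 arrays and in a fit of D10 and ESC alone, with adjusted p up to 0.135.

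The other class I members above background did not pass in any comparison. H2-Q2 averaged 6.62 in D10, 6.56 in D5 and 6.63 in ESC by its brightest probe set. The changes of that probe set against ESC lay within −0.32 and 0.28 by their 95% intervals. A dimmer H2-Q2 probe set gave −0.11 in D10 (−0.51 to 0.30) and −0.33 in D5 (−0.70 to 0.03), neither past the threshold. H2-T23, which encodes the Qa-1 ligand of the inhibitory killer cell receptor NKG2A, averaged 4.59 in D10, 4.65 in D5 and 4.80 in ESC. H2-Bl, annotated as a pseudogene, averaged 4.45, 4.66 and 4.92 in D10, D5 and ESC, H2-Q1 4.22, 4.37 and 4.50, and H2-M10.2 4.20, 4.02 and 4.16. The remaining 13 class I genes had a mean at or under background. They include H2-M3, which presents formylated peptides, H2-Q10, a secreted liver class I molecule, and most of the H2-M10 family, known from vomeronasal neurons.

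**Figure D2:**
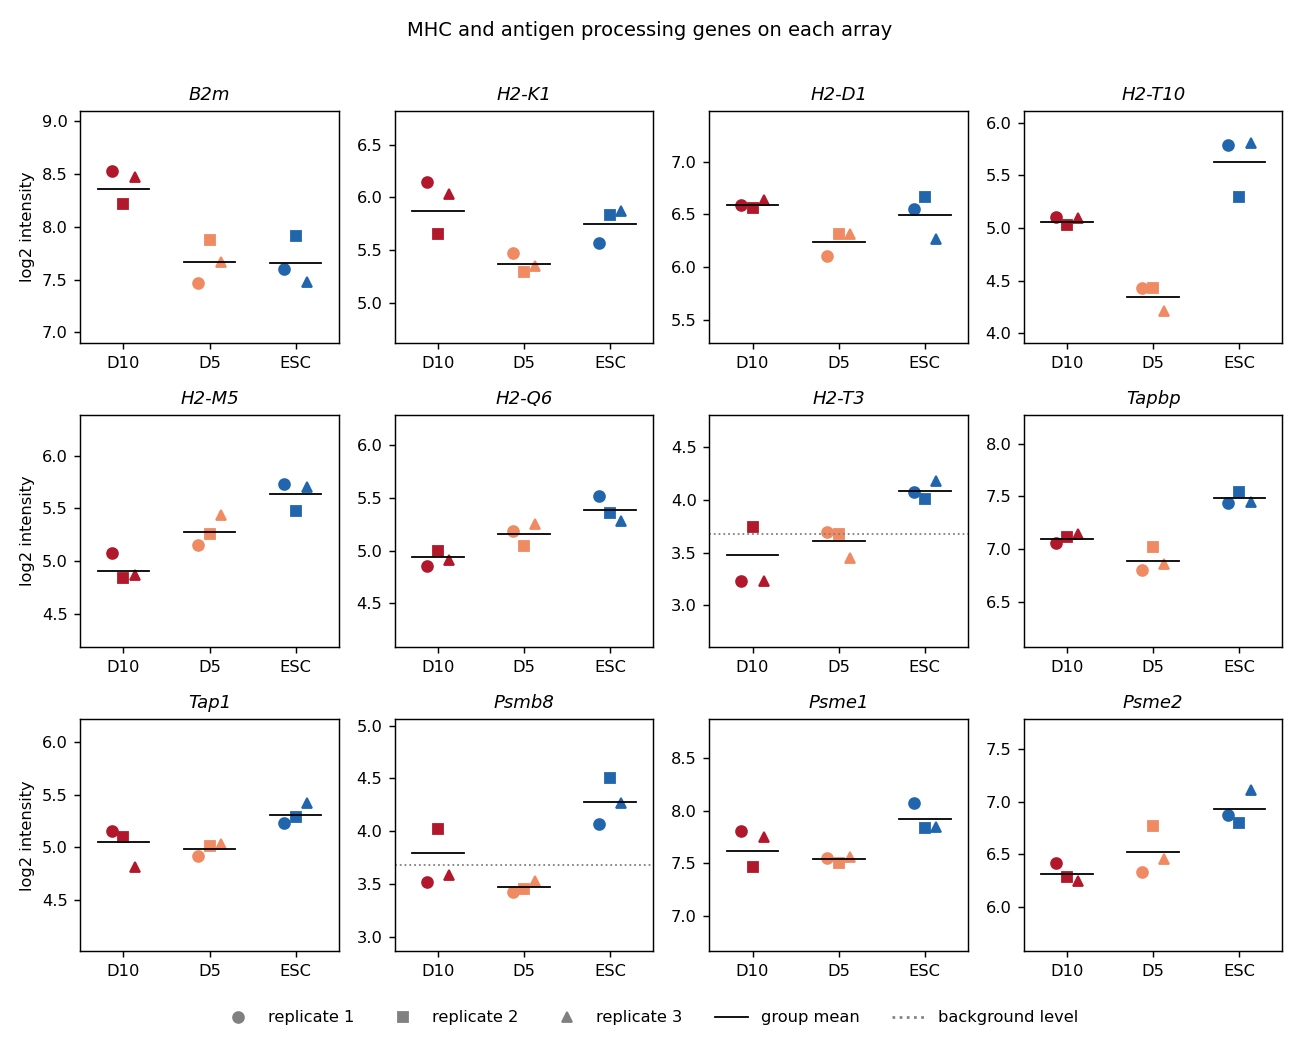
Log2 intensity of 12 members on each array of D10, D5 and ESC, with a line at the group mean (D10 replicates 1 and 3 averaged first) and a dotted line at the background level of 3.68 where it falls in the panel. Each panel covers its own range of levels. B2m stands apart in D10, and H2-T10, Psmb8, Tapbp, H2-K1, H2-D1, Tap1 and Psme1 have their lowest mean in D5.

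All 9 processing genes had a lower mean in D5 than in ESC, and 8 of them in D10. The changes in D5 lay between −0.81 and −0.24 with a median of −0.37, and 2 passed (Psmb8 and Tapbp). Over all probe sets the D5 median was −0.01 and 1.50% passed as lower. On 8 of the 9 (88.9%) every D5 array lay under every ESC array, against the 11.0% of all probe sets given above. In D10 the median change was −0.31 and 2 passed (Psme2 and Tapbp). Over all probe sets the D10 median was −0.02 and 3.33% passed as lower. On 7 of the 9 (77.8%) all D10 arrays lay under all ESC arrays, against 16.4% of all probe sets. In D10 against D5 the median was 0.06 and 0 passed. These counts describe 9 genes that were chosen for their shared role, and no test was made of the group.

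Tapbp encodes tapasin, which bridges TAP and the class I molecule while peptide is loaded. It read 7.06, 7.11 and 7.14 on the D10 arrays, 6.80, 7.02 and 6.86 on the D5 arrays, and 7.44, 7.54 and 7.45 on the ESC arrays. The replicates were tight and the 3 groups did not overlap, with D5 lowest. D5 averaged 6.89 ± 0.11 and ESC 7.48 ± 0.06 (n = 3 each), a change of −0.58 (SE 0.09), or 1.50-fold lower in D5, with adjusted p = 0.00873. That call held in all 17 alternatives, with adjusted p at most 0.0426. The D10 change of −0.37 (SE 0.10, adjusted p = 0.0486) lost its call in 9 of 17 alternatives, among them every fit that left out an ESC array and median centring of the arrays (adjusted p = 0.0683), with the largest adjusted p of 0.159 without D10 replicate 2. The others were a fit of D10 and ESC alone (0.0666) and fits without D5 replicate 1 (0.0652), D5 replicate 3 (0.0669) or D10 replicate 1 (0.0606).

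Psmb8, Psmb9 and Psmb10 encode the catalytic subunits of the immunoproteasome. Psmb8 read 3.52, 4.02 and 3.58 on the D10 arrays, 3.42, 3.45 and 3.53 on the D5 arrays, and 4.07, 4.50 and 4.27 on the ESC arrays. All 3 D5 arrays lay under the background level of 3.68, and ESC was above it on every array. D5 averaged 3.47 ± 0.06 and ESC 4.28 ± 0.21 (n = 3 each), a measured change of −0.81 (SE 0.14, adjusted p = 0.0194). The ESC mean stood 0.6 above the background level, or 1.52-fold, a distance that leaves out the spread between arrays. It is not a minimum for the change, since limma's confidence interval for the change ran from −1.14 to −0.49. The call was lost without ESC replicate 2 (adjusted p = 0.0643), ESC replicate 3 (0.0771) or any 1 of the D5 arrays (0.0614 to 0.0773). In D10 the change was −0.49 (adjusted p = 0.108). Psmb9 averaged 5.41 in D10, 5.49 in D5 and 5.73 in ESC, and Psmb10 5.46 in D10, 5.56 in D5 and 5.82 in ESC. Neither passed against ESC, at −0.31 (adjusted p = 0.0956) and −0.35 (0.0765) in D10, and −0.24 and −0.26 in D5.

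Psme1 and Psme2 encode the alpha and beta subunits of PA28, the interferon-inducible proteasome activator. Psme2 read 6.42, 6.28 and 6.25 on the D10 arrays, 6.33, 6.77 and 6.46 on the D5 arrays, and 6.87, 6.80 and 7.11 on the ESC arrays. Both lines lay under ESC on all arrays. D10 averaged 6.31 ± 0.03 (n = 2) and ESC 6.93 ± 0.16 (n = 3), a change of −0.62 (SE 0.15, adjusted p = 0.0341), while the D5 change of −0.41 did not pass (adjusted p = 0.146). A dimmer Psme2 probe set gave −0.11 in D10 and −0.47 in D5, neither past the threshold, and Psme2 has a near-identical copy elsewhere in the mouse genome, so the D10 value is uncertain. The mean of both probe sets gave −0.37 in D10 (adjusted p = 0.115), and the call was also lost without any 1 of the ESC arrays, D5 replicate 3 or D10 replicate 2 (adjusted p up to 0.161). Psme1 read 7.81, 7.46 and 7.75 on the D10 arrays, 7.55, 7.50 and 7.56 on the D5 arrays, and 8.07, 7.83 and 7.84 on the ESC arrays. Its changes of −0.29 in D10 and −0.38 in D5 (adjusted p = 0.108) against ESC did not pass.

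Tap1 and Tap2 form the peptide transporter. Tap1 read 5.16, 5.10 and 4.81 on the D10 arrays, 4.92, 5.01 and 5.03 on the D5 arrays, and 5.23, 5.29 and 5.42 on the ESC arrays. Every array of both lines was under every ESC array, yet the changes of −0.27 in D10 and −0.33 in D5 (adjusted p = 0.0813) did not pass. Tap2 stood at −0.30 in D10 and −0.37 in D5 against ESC and did not pass. Tap1 is transcribed away from Psmb9 from a shared start region, with 226 bases between the annotated starts. Erap1, the aminopeptidase that trims peptides in the endoplasmic reticulum, averaged 4.40 in D10, 4.01 in D5 and 4.34 in ESC. It was the 1 processing gene that was not lower in D10 than in ESC, at 0.07 (95% interval −0.29 to 0.42), and D10 stood 0.39 above D5 (adjusted p = 0.446).

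**Figure D3:**
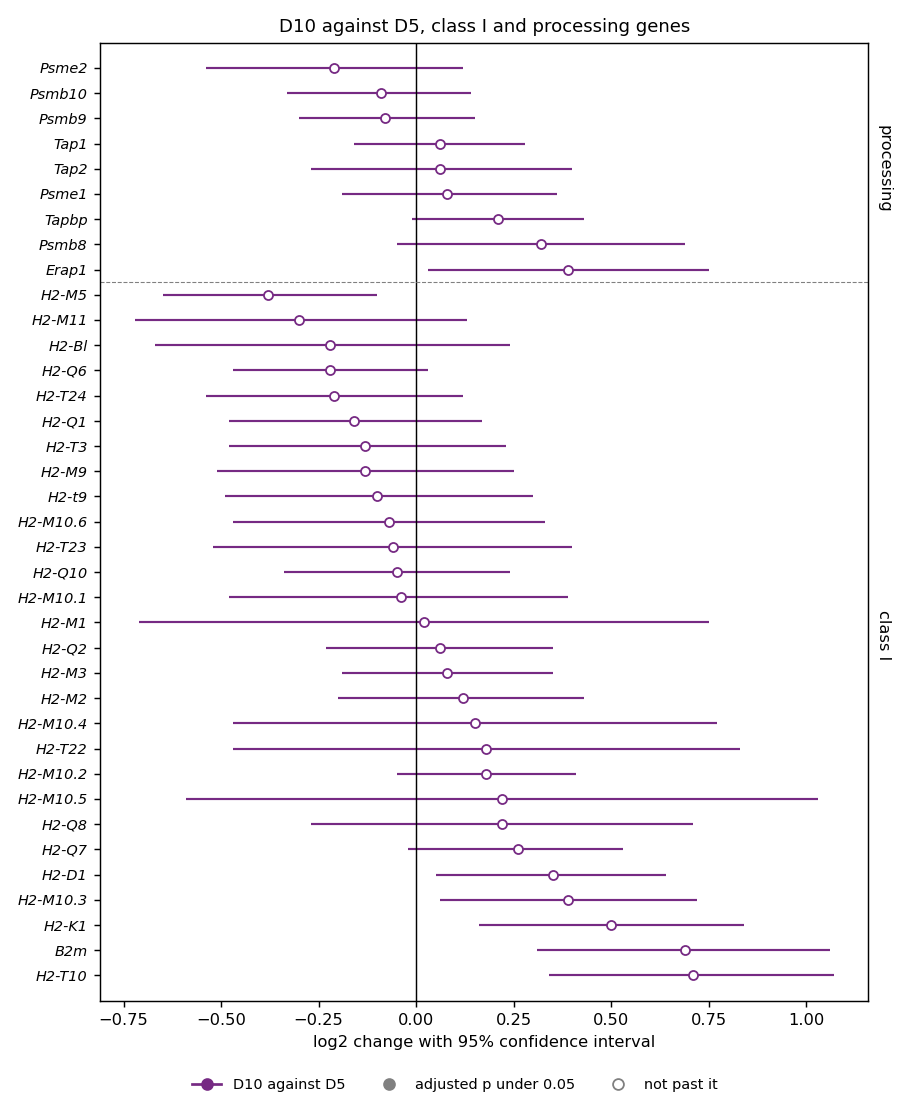
Log2 change of the 9 processing and 28 class I genes in D10 against D5, with 95% confidence intervals from limma. No point is filled, since none passed an adjusted p of 0.05. The intervals of H2-T10, B2m and H2-K1 lie furthest right of 0.

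Of the 11 class II genes, 7 had means under background, and 0 passed in either line against ESC or between the lines. Median changes were −0.06 in D10 and −0.09 in D5 against ESC, and 0.03 in D10 against D5. Cd74, the invariant chain that guards the class II groove, averaged 3.20 in D10, 3.12 in D5 and 3.34 in ESC, under background in each. Ciita, the class II transactivator, averaged 3.47 ± 0.36 in D10, 3.68 ± 0.14 in D5 and 3.81 ± 0.15 in ESC, beside the background level. H2-Aa, the alpha chain of I-A, averaged 2.78 in D10, 2.88 in D5 and 2.76 in ESC. H2-Ab1, its beta chain, averaged 3.84, 3.91 and 3.73 in D10, D5 and ESC.

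H2-Eb1, the beta chain of I-E, averaged 4.54 ± 0.16 in D10, 4.55 ± 0.32 in D5 and 4.65 ± 0.13 in ESC, and its 95% intervals against ESC were −0.52 to 0.29 in D10 and −0.47 to 0.26 in D5. H2-DMa and H2-DMb2, which encode chains of the peptide exchange factor DM, differed from ESC by 0.19 and −0.06 in D10 and by 0.08 and −0.09 in D5, none past the threshold. H2-Eb2 had the lowest class II value against ESC, at −0.44 in D10 (95% interval −0.77 to −0.12, adjusted p = 0.103), but its level was under background in every group. Changes of class II RNA under the background level could not be measured.

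The other genes of the pathway were counted from fixed lists. Over all probe sets, 5.32% were higher and 3.33% lower in D10 than in ESC. In D5 these shares were 2.36% and 1.50%. Among the regulators of MHC transcription, Irf1 was lower than in ESC in both lines and Creb1 in D10. Irf1, the factor that binds interferon-stimulated elements of class I promoters, read 5.31, 5.17 and 5.34 on the D10 arrays, 5.06, 5.09 and 4.85 on the D5 arrays, and 5.90, 5.93 and 5.78 on the ESC arrays. It differed from ESC by −0.62 in D10 (adjusted p = 0.00947, lost without D10 replicate 2 at 0.0768) and by −0.87 in D5 (adjusted p = 0.0024). Creb1, a factor of the class II and class I enhanceosome, changed by −0.41 in D10 (adjusted p = 0.0375), a call lost in 8 of 17 alternatives (adjusted p up to 0.188).

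Calls on the receptor side of interferon gamma signalling ran the other way. Of 8 genes, 4 passed as higher in D10 and 2 in D5 than in ESC. Over all probe sets, 5.32% were higher in D10 and 2.36% in D5. None of the 8 passed as lower, but the list did not move as a whole. Its changes against ESC were negative for 4 genes in D10 and for 3 in D5. Ifngr2, a chain of the interferon gamma receptor, rose by 0.84 in D10 (adjusted p = 0.0034) and 0.52 in D5 (0.0335), and the receptor kinase gene Jak1 by 0.71 in D10 (0.00292) and 0.60 in D5 (0.00847). Ifngr1 rose by 0.62 in D10 (0.044) and Jak2 by 1.04 (0.0186). The Jak1 calls and the D10 call of Ifngr2 held in all 17 alternatives, while Ifngr1 lost its call in 7, Jak2 in 3 and the D5 call of Ifngr2 in 7.

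Of 11 other genes of class I loading, 1 was higher in D10 than in ESC, Pdia3, the disulfide isomerase of the loading complex (0.62, adjusted p = 0.0074), and 0 passed in D5. None of 17 genes of the constitutive proteasome passed in either line, with medians of −0.04 in D10 and 0.01 in D5 and changes between −0.31 and 0.12. Of 8 class II pathway proteases and related genes, the cathepsin gene Ctsb was higher in D10 (1.03, adjusted p = 0.000877) and in D5 (0.59, 0.0161), as were Ctsd (0.59 in D10, 0.00399, and 0.40 in D5, 0.0248) and, in D10, Ctsl (0.72, 0.00366). Leaving out ESC replicate 2 or 3 ended the Ctsb call in D5 (adjusted p up to 0.0715), and leaving out any 1 of the D5 or ESC arrays ended that of Ctsd in D5 (up to 0.0979). Of 16 names of MHC-like genes and killer cell ligands 9 matched a probe set, and 0 passed. No gene of these lists passed in D10 against D5.

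Markers of cell types were read on the same arrays. Of 20 fibroblast and stroma markers, all above background, 19 were higher in D10 and 16 in D5 than in ESC. Over all probe sets these shares were 5.32% and 2.36%. The median changes of the 20 markers were 1.39 and 0.87. In D10 against D5, 3 of them were higher, against 0.194% of all probe sets. The summed linear intensity of the 20 markers ran between 10257 and 10600 on the D10 arrays, 7223 and 7977 on the D5 arrays, and 4253 and 4905 on the ESC arrays. The part of these markers in the rise of the receptor genes, of Pdia3 and of the cathepsins was not tested. Of 10 pluripotency markers, all above background, 4 were lower in D10 and 5 in D5 than in ESC. Over all probe sets, 3.33% were lower in D10 and 1.50% in D5. The sums of the 10 markers were 8430 to 8657 in D10, 8766 to 9343 in D5 and 11328 to 11898 in ESC. Their part in the lower processing genes and Irf1 was not tested either. Pou5f1, the gene that marks pluripotent cells, read between 10.37 and 10.84 on all 9 arrays. Every array of both lines lay under every ESC array. Its changes against ESC, −0.31 in D10 (adjusted p = 0.0796) and −0.19 in D5 (0.302), did not pass. Nanog was lower in D5 (−0.43, adjusted p = 0.0156), while its D10 change of −0.18 did not pass (0.244).

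Leukocyte markers were mostly at background: 5 of 19 exceeded it, and their sums were 274 to 295 in D10, 340 to 377 in D5 and 398 to 430 in ESC. Ptprc, the pan-leukocyte gene CD45, read 2.64 to 3.12 on all arrays, under background. Cd80 was higher in D10 (0.69, adjusted p = 0.00686) and D5 (0.70, adjusted p = 0.00776), and Laptm5 lower in D10 (−1.29, adjusted p = 0.000734). Of 8 erythroid and granulocytic marrow markers 2 exceeded background and 0 passed, with sums of 83 to 104 in D10, 78 to 101 in D5 and 94 to 112 in ESC.

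**Figure D4:**
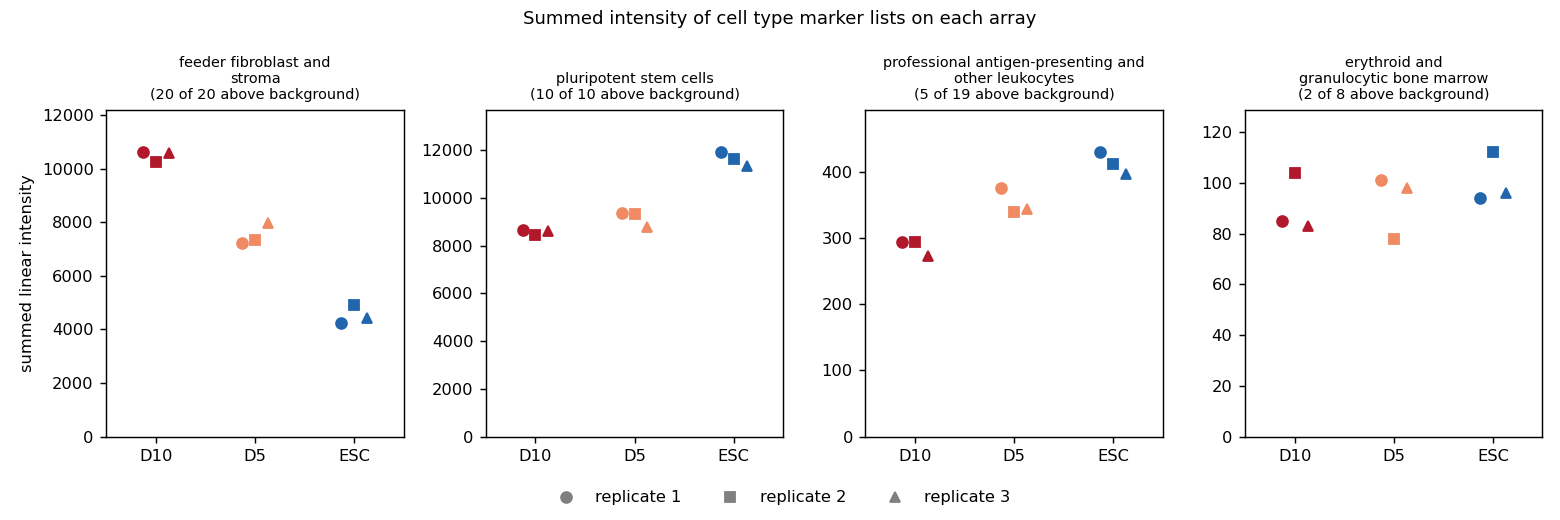
Summed linear intensity of 4 marker lists on each array of D10, D5 and ESC, with the number of genes above background in each title. Fibroblast markers are highest in D10 and lowest in ESC, pluripotency markers are highest in ESC, and each panel has its own axis starting at 0.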

How the data were processed

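Total RNA of mouse ESC, D5 and D10 cells was labelled with biotin and hybridised to 9 Affymetrix arrays. Per the submitters' processing notes, the authors used MAS5, with no version given. How arrays were normalized against each other is not given in those notes or in the labels. The deposited values are log2 values, as the linear intensity columns of the authors' short table, deposited for 461 probe sets, equal 2 to the power of them within 0.0013%. Both deposited log2 tables were identical.

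Groups came from the sample titles. The 28853 probe sets all entered the test, with no filter, in limma 3.58.1 (R 4.3.3; lmFit, eBayes) with a mean per group over 8 samples, D10 replicates 1 and 3 being averaged, 5 residual and 3.56 prior degrees of freedom, two-sided. Each adjusted p is limma's p after the Benjamini-Hochberg step across the 28853 probe sets, called under 0.05. The fit was tested on simulated data with seeded changes, and its recovery of small changes is not given here. A gene that did not pass may therefore still differ. Arrays have no read depth, and their number limits the precision. The members and the gene lists were chosen with earlier results of these data known. Members named with values are those past the threshold in any comparison, those with a mean above background, and a fixed set of main genes; genes of the other pathway lists are named only past the threshold. The list of transcriptional regulators is not reported here in full. Promoters came from the RefSeq table of build GRCm38.p6, and the build behind the array annotation was not used.

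Same-numbered arrays deviated from their group means with correlations of −0.07, −0.10 and 0.09 for D5 and ESC, 0.30, 0.24 and −0.08 for D10 and ESC, and −0.09, −0.38 and −0.24 for D10 and D5, so the numbers were not taken to pair the samples. Alternatives were median centring, quantile normalization, an intensity trend with robust estimation, leaving out the dimmest 30% of probe sets, only the groups compared, 9 arrays counted separately with and without a replicate block, leaving out each array, and the mean over the probe sets of a gene.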

Additional observations from a re-analysis of the deposited data

How the results depend on the processing

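No change of a called member reversed under any of the 17 alternatives, and 2 of the 9 calls, H2-T10 and Tapbp in D5 against ESC, passed in every one. For D5 against ESC, 1116 probe sets and 3 members were called; an intensity trend with robust estimation gave 1695 and 5, and leaving out 1 array gave 457 to 1091 probe sets and 2 to 3 members. For D10 against ESC, 2496 probe sets and 6 members were called; a fit of only those groups gave 1582 and 2, counting 9 arrays separately without a block 3977 and 11, and leaving out 1 array 1188 to 2507 probe sets and 1 to 6 members. With the replicate number as a block, 938 probe sets and 4 members were called for D5 against ESC, 3199 and 11 for D10 against ESC, and 193 and 0 for D10 against D5. For D10 against D5, 62 probe sets and 0 members were called; leaving out the dimmest 30% of probe sets gave 154 and 0, the intensity trend with robust estimation 268 and 1 (B2m, adjusted p = 0.0447), only the groups compared 2 and 0, 9 arrays counted separately 517 and 2 (B2m, 0.0387, and H2-T10, 0.0351), and leaving out 1 array 4 to 56 probe sets and 0 members. The cause of these shifts was not tested beyond the change in the number of arrays or probe sets that the alternatives make. Scaling moved the median of all probe sets most in D10 against D5, from −0.004 to −0.0185 under median centring. H2-T10 in D10 against ESC (main adjusted p = 0.0687) passed without the dimmest probe sets (0.0459), with the intensity trend (0.0455), with 9 arrays counted separately (0.0243), with the block (0.0415) and without ESC replicate 2 (0.0112). Other members outside the main calls passed under some alternatives. In D5 against ESC, H2-T22 passed with the intensity trend (adjusted p = 0.0332) and with the block (0.0402), and Psme1 with the intensity trend (0.0358). In D10 against ESC, H2-Eb2, Psmb8, Psmb9 and Psmb10 passed with 9 arrays counted separately (0.0311, 0.0286, 0.0293 and 0.0366), and H2-T22, H2-Bl, H2-Eb2 and Psmb8 with the block (0.0226, 0.0451, 0.0303 and 0.0196).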
